A study of Homo sapiens with 12 samples.

Results

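The 53 genes described here make up the machinery that copies DNA and the G1/S genes switched on with it: the origin recognition complex (ORC) and the loading factors, the MCM helicase, CDC45 and GINS, the replicative polymerases, the clamp and its loader, RPA, the enzymes of nucleotide supply, cyclin E and factors that travel with the fork. They were taken by gene symbol from the platform annotation, 53 of 18132 genes with a probe set annotated to them alone. All 53 were bright enough to be tested among 16205 genes. Each was read by its brightest probe set, a set of short probes against one transcript region, and 40 of the 53 have further probe sets, 134 in all. Of the probe sets used, 16 have names ending in s_at or x_at, types whose probes can also match other transcripts.

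Expression was measured with Affymetrix PrimeView arrays in 3 human lung cancer cell lines, H1993, H1693 and H1650, which the submitters chose because they overexpress the kinase MARK2. In each line, cells given a lentiviral short hairpin RNA against MARK2 (labelled KD) were compared with cells given the empty pLKO vector (labelled PLKO CONTROL). Each of the 6 groups has 2 arrays from biological replicates. All cells were therefore transduced, and the control carries no hairpin. The number and sequence of the hairpins are not given in the sources used here. Loss of MARK2 and other effects of a hairpin can therefore not be told apart. Values are log2 signals, so a change of -1 leaves 50 percent of the control signal, and n = 2 arrays in each group throughout.

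In G1, ORC, CDC6 and CDT1 load the MCM2 to MCM7 ring onto origins, and geminin (GMNN) blocks CDT1 once S phase has begun. CDC45 and GINS then join MCM to form the active helicase, polymerase alpha-primase lays primers, RFC loads the PCNA clamp, and polymerases delta and epsilon extend the strands. Many of these genes are known targets of the E2F transcription factors, which rise as cells commit to S phase, and they are therefore used as markers of proliferation.

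The targeted gene was checked first. MARK2 had 6.76 and 6.77 in H1993 KD arrays, against 9.17 and 9.06 in the controls (change -2.35, SE 0.16, limma adjusted p = 6.47e-06). In H1693 it had 6.62 and 6.57 in KD arrays, against 7.76 and 7.97 in the controls (change -1.27, SE 0.16, adjusted p = 0.000258). In H1650 it had 5.92 and 5.37 in KD arrays, against 6.07 and 5.80 in the controls, and the groups overlap (change -0.29, SE 0.16, adjusted p = 0.156). The knockdown is thus seen in the signal of H1993 and H1693 cells, while H1650, where the gene is dim, shows no change past the threshold.

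The H1650 arrays stand apart in RNA integrity. The signal of the 3' minus the 5' control probe set of GAPDH, which grows as RNA is degraded, was 6.87 and 6.77 in H1650 KD arrays, against 2.28 and 3.07 in the H1650 controls, while it lay between -0.12 and 0.02 on the 8 arrays of H1993 and H1693. Of 6 epithelial markers, EPCAM (12.48 to 13.43 over the 12 arrays), KRT18 (13.83 to 15.02), CDH1 (12.05 to 13.84) and KRT19 (12.43 to 14.75) were high in all lines. KRT7 was at 6.37 to 6.74 on the H1693 arrays and at 13.94 to 14.29 on the others, and KRT8 was at 7.0 and 7.39 in H1650 KD arrays, against 11.90 and 11.43 in the H1650 controls. Of the leukocyte markers, PTPRC was at 3.47 to 4.5 and CD3E at 5.81 to 6.37. CD14 was at 8.11 to 8.86 on the H1993 arrays and at 4.80 to 6.57 on the others. The lung lineage markers NKX2-1 and SFTPB stayed at 6.90 to 7.32 and 6.55 to 7.08. Some markers moved with the knockdown. CDH1, the cell adhesion protein E-cadherin, rose by 0.85 in H1993 and 0.72 in H1693 (adjusted p = 1.67e-05 and 4.63e-05). Of 4 fibroblast markers, 3 were tested; COL1A1 rose by 0.59 in H1993 and 0.67 in H1693 (adjusted p = 0.00834 and 0.00438), and COL3A1, at 10.40 to 11.04 in H1693 and 4.44 to 5.47 in H1993, rose by 0.62 in H1693 (adjusted p = 0.047). COL1A2 (5.31 to 5.80) and DCN (4.06 to 4.93) were dim on every array. The log2 of the summed signal of these 4 was 8.93 to 9.10 in H1993 KD arrays, against 8.46 to 8.61 in the controls, and 11.82 to 11.83 in H1693 KD arrays, against 11.19 to 11.22 in the controls. The part of these markers in the results below was not tested. Results are therefore drawn from H1993 and H1693 first, and those of H1650 follow on their own.

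E2F sites are shown first, since the genes share this class of regulator. The table of RefSeq promoters (GRCh38.p14) holds a window for 46 of the 53 genes, and the 250 bases before the start were searched on both strands for an E2F core, spelled TTGGCGC, with the variant TTCCCGC, the variant TTGCCGC and the variant TTCGCGC. Of these 46 genes, 21 (45.7%) hold a match, against 15.8% of 12980 tested genes with a window. Each stretch below belongs to a gene described further on, reads 5′ to 3′ on the gene's strand, and has the match in capitals (the core or its reverse complement).
GINS2, chr16:85688969-85688995, minus strand: tctcgccgtgGCGGGAAaacggcggcc
RFC3, chr13:33818084-33818110, plus strand: tttggagctcGCGGGAAaacttgtctc
DTL, chr1:212035630-212035656, plus strand: ggactccaggTTCCCGCggctgggaga
RRM1, chr11:4094452-4094478, plus strand: aagaaaaacgTTCCCGCcggttaggtt
PRIM1, chr12:56752331-56752357, minus strand: ggccgtgctgTTCCCGCcaattcctgt
LIG1, chr19:48170441-48170467, minus strand: ttcaccccttTTCCCGCcctcctccca
RPA1, chr17:1829826-1829852, plus strand: ggcgcgccccTTGGCGCcccgctccgc
POLE, chr12:132687344-132687370, minus strand: gggtgggagcGCGCCAAatttctcccc
POLA1, chrX:24693788-24693814, plus strand: acgcgcgtccGCGGGAAggccgggggc
CHAF1A, chr19:4402593-4402619, plus strand: gctcgcccaaTTGGCGCgcggactgcg
MCM7, chr7:100101568-100101594, minus strand: agctcggaccGCGGGAAacccggcgcc
The match begins 31 bases before the start in GINS2, 55 in RFC3, 108 in DTL and 223 in RRM1. A match is a run of letters and no measured binding.

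The letters CCAAT, bound by the factor NF-Y, were in 27 of the 46 windows (58.7%), against 34.3% of the 12980, and TTTGAA, the core of the CHR element of late cell cycle promoters, was in 1 (2.17%), against 9.71%. In 4 windows an E2F match and a CCAAT match overlap, as in PRIM1 above. The windows of 4 genes are given whole, for the genes of MCM2 to MCM7 and of GINS that fell most in H1993 and H1693 together among those with a printed window, for CDC45, and for RFC1, which changed least among the genes with a window; capitals mark matches of any of these motifs.
MCM2, chr3:127598161-127598410, plus strand: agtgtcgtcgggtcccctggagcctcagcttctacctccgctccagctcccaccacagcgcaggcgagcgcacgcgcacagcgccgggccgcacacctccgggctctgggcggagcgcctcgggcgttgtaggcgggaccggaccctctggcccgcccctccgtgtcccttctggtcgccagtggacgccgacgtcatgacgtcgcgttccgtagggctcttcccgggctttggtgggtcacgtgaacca
GINS2, chr16:85688955-85689204, minus strand: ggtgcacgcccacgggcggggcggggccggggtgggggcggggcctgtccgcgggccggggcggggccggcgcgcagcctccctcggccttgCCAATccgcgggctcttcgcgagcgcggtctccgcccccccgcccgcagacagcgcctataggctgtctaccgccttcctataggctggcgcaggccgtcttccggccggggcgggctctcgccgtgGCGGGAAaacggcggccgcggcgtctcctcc
CDC45, chr22:19479670-19479919, plus strand: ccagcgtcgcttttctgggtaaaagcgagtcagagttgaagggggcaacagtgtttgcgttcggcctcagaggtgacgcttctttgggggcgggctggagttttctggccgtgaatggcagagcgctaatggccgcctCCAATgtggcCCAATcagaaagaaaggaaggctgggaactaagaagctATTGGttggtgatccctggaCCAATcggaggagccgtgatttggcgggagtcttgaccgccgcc
RFC1, chr4:39366363-39366612, minus strand: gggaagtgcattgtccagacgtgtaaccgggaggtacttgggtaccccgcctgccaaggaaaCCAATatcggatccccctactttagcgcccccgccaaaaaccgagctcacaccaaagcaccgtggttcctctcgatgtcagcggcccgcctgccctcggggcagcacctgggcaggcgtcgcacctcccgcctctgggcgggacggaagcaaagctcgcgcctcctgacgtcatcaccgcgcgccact
The CDC45 window, the first of several listed for the gene, holds 4 CCAAT matches and the MCM2 window none of the motifs.

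Replication genes were lower after MARK2 knockdown in both H1993 and H1693. In H1693, 52 of the 53 genes fell and none rose (limma adjusted p below 0.05), where 15.9% of all tested genes fell and 33% changed in either direction. In H1993, 28 fell and none rose, where 14.5% of all tested genes fell and 33.4% changed in either direction. The median change of the 53 was -0.24 in H1993 and -0.83 in H1693, or 84.7% and 56.1% of the control signal, beside medians over all tested genes of 0.02 and -0.02. The signal ended under 50 percent of its control in 10 genes in H1693 and in 0 genes in H1993. In bulk RNA, fewer cells in S phase and less transcript per cell cannot be told apart.

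The RMA signals of the single arrays, which the fit also used, show the same. Taken against the mean of its line's controls, the median of the 53 genes was -0.24 and -0.25 on the H1993 KD arrays and -0.79 and -0.82 on the H1693 KD arrays, while the control arrays lay at -0.01 and 0.01 in H1993 and at 0.02 and -0.02 in H1693. In H1693 both KD arrays lay below both control arrays for all 53 genes, beside 36.1% of all tested genes (32.9% had both KD arrays above). In H1993 they did so for 41 genes, beside 29% of all tested genes (34.7% had both above). At an unadjusted p below 0.05, limma gave 32 falling genes and 1 rising gene in H1993, and 53 and 0 in H1693. How many of all tested genes pass that threshold was not counted, so these counts have no background beside them.

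**Figure D1:**
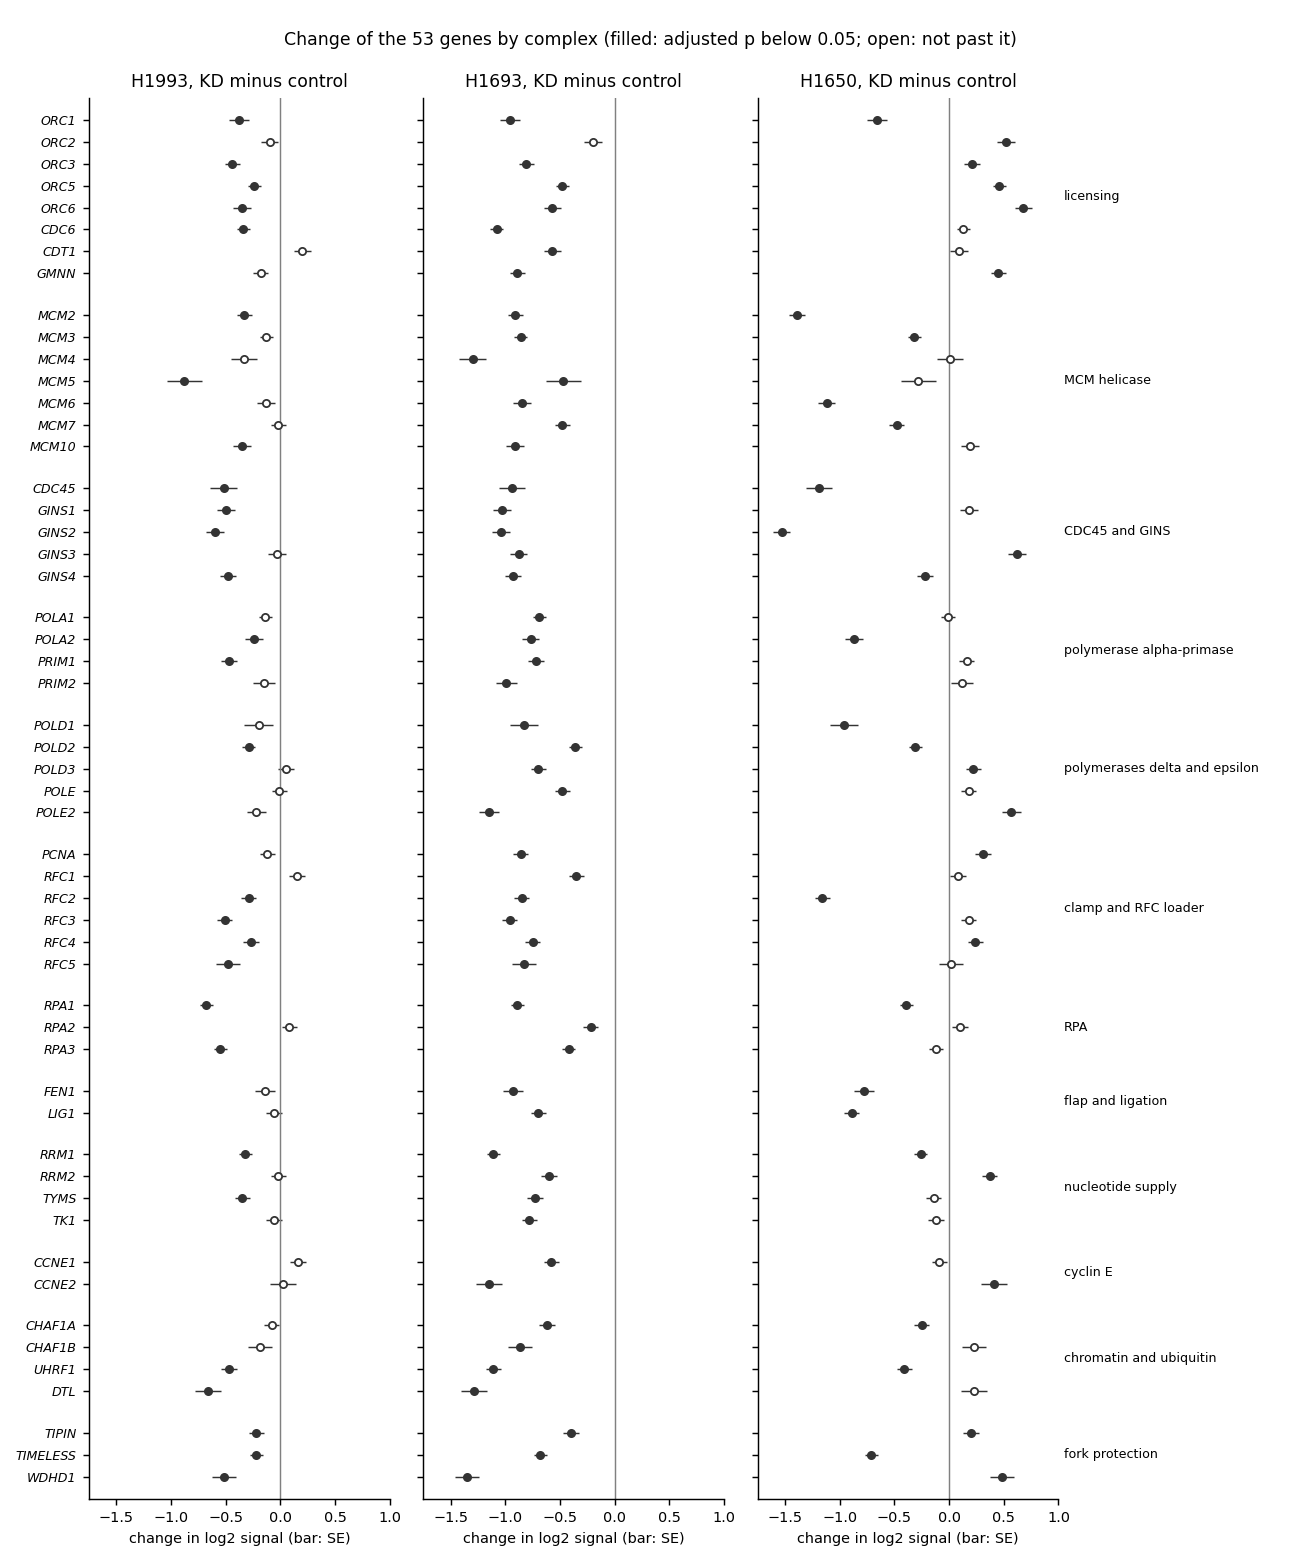
Change in log2 signal, KD minus control, for each of the 53 genes (rows, by complex) in H1993, H1693 and H1650; bars are standard errors of the fit, filled points passed the adjusted p of 0.05. In H1693 all 53 points lie left of 0, from -1.35 to -0.20; in H1993 47 do, and in H1650 points lie on both sides, from -1.53 to 0.68.

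Of the licensing genes, 5 of 8 fell in H1993 and 7 of 8 in H1693 (medians -0.29 and -0.69). Beside this and the counts by complex below stand the 14.5% (H1993) and 15.9% (H1693) of all tested genes that fell. CDC6, the loader that with ORC places MCM on DNA, had 9.29 and 9.37 in H1693 KD arrays, against 10.37 and 10.44 in the controls (change -1.08, SE 0.06, adjusted p = 3.63e-06). In H1993 it had 11.35 and 11.29 in KD arrays, against 11.66 and 11.67 in the controls (change -0.34, SE 0.06, adjusted p = 0.00206). The KD arrays lie below the controls in both lines, and the fall was larger in H1693 (difference -0.73, SE 0.09, adjusted p = 0.000428). GMNN, the inhibitor of CDT1, had 11.48 and 11.58 in H1693 KD arrays, against 12.42 and 12.41 in the controls (change -0.89), and 12.09 and 12.09 in H1993 KD arrays, against 12.28 and 12.25 in the controls (change -0.18, adjusted p = 0.0761). It thus fell in H1693, and in H1993 its groups do not overlap but the change did not pass.

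CDT1, the partner of CDC6 in loading, fell by 0.57 in H1693 (adjusted p = 0.000367) and had a change of 0.20 in H1993 (adjusted p = 0.0745). Its probe sets did not run one way in H1993, with changes from -0.24 to 0.20, whereas in H1693 they lay between -0.71 and -0.57. Among the ORC subunits, ORC1, ORC3, ORC5 and ORC6 fell in both lines, by 0.38, 0.44, 0.24 and 0.35 in H1993 and by 0.96, 0.81, 0.48 and 0.57 in H1693. ORC2 was the 1 gene of the 53 that did not pass in H1693. It had 9.68 and 9.56 in H1693 KD arrays, against 9.88 and 9.75 in the controls (change -0.20, SE 0.08, adjusted p = 0.0902), and 9.04 and 9.08 in H1993 KD arrays, against 9.11 and 9.22 in the controls (change -0.10, adjusted p = 0.400). Its groups are separate by a narrow gap in each line.

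All 6 subunits of the MCM2 to MCM7 ring fell in H1693, and 2 of them, MCM2 and MCM5, fell in H1993. MCM4 had 10.01 and 10.26 in H1693 KD arrays, against 11.51 and 11.36 in the controls, a change of -1.30 (SE 0.12, adjusted p = 3.76e-05), or 40.6% of the control. In H1993 it had 12.08 and 11.87 in KD arrays, against 12.32 and 12.30 in the controls (change -0.33, SE 0.12, adjusted p = 0.0558). The H1993 groups do not overlap, and the other MCM4 probe sets changed there by as much as -1.09. MCM7, the member of the group that moved least, had 12.99 and 12.98 in H1693 KD arrays, against 13.49 and 13.44 in the controls (change -0.48, SE 0.07, adjusted p = 0.000418). In H1993 it had 14.31 and 14.30 in KD arrays, against 14.32 and 14.34 in the controls, a change of -0.02 (adjusted p = 0.849) that is as small as the gap between the control arrays.

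The other subunits showed the same order. MCM2, MCM3 and MCM6 changed by -0.33, -0.13 and -0.13 in H1993 and by -0.91, -0.86 and -0.85 in H1693, although a dimmer probe set of MCM6 was at 0.03 and -0.02. MCM5 was an exception, at -0.47 in H1693 and -0.88 in H1993. It had 7.12 and 7.29 in H1693 KD arrays, against 7.56 and 7.79 in the controls (SE 0.16, adjusted p = 0.0473, held in 12 of 22 alternative settings). In H1993 it had 7.77 and 7.73 in KD arrays, against 8.39 and 8.89 in the controls (SE 0.16, adjusted p = 0.00193). Its SE was the largest of the 53, and the difference between the lines of 0.42 (SE 0.22) did not pass (adjusted p = 0.234). MCM10, which helps to activate the loaded helicase, fell by 0.35 in H1993 and by 0.91 in H1693.

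CDC45 and the GINS subunits, which turn the MCM ring into a moving helicase, were lower in both lines, with 4 of 5 past the threshold in H1993 and 5 of 5 in H1693 (medians -0.50 and -0.94). GINS2 had 10.13 and 10.15 in H1993 KD arrays, against 10.75 and 10.72 in the controls (change -0.60, SE 0.08, adjusted p = 0.000417). The H1693 values were 9.50 and 9.67 in KD arrays, against 10.64 and 10.60 in the controls (change -1.04, SE 0.08, adjusted p = 1.78e-05). The KD arrays lie well below the control arrays in both lines. CDC45 had 10.75 and 10.67 in H1693 KD arrays, against 11.64 and 11.66 in the controls, and 9.74 and 9.86 in H1993 KD arrays, against 10.32 and 10.32 in the controls. The falls of 0.94 (H1693) and 0.52 (H1993) differ by an amount that did not pass (-0.42, SE 0.18, adjusted p = 0.120). GINS3 fell in H1693, with 8.55 and 8.66 in KD arrays, against 9.54 and 9.43 in the controls (change -0.88). In H1993 its groups overlap, with 9.69 and 9.56 in KD arrays, against 9.63 and 9.69 in the controls (change -0.03), and the difference of -0.85 (SE 0.11) passed (adjusted p = 0.000803). GINS1 fell by 1.03 in H1693 and by 0.50 in H1993 on its brightest probe set. Its dimmer probe sets fell less in H1693 than in H1993, at -0.15 against -0.70 and at -0.47 against -1.13, so the order of the lines for GINS1 turns with the probe set. GINS4 fell by 0.93 in H1693 and 0.48 in H1993.

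**Figure D2:**
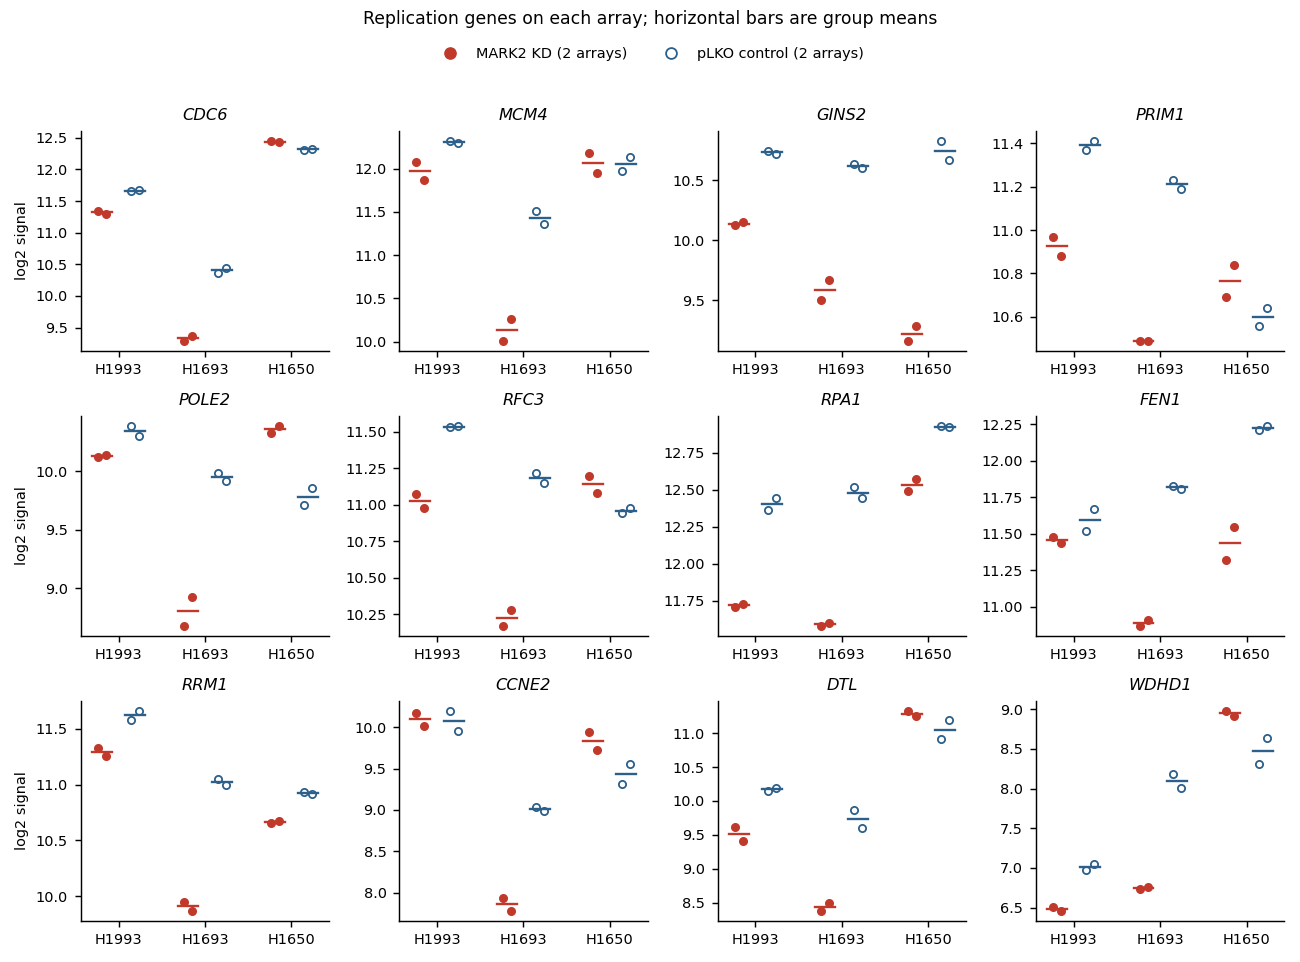
Log2 signal of 12 genes on each of the 12 arrays, by line, with KD arrays as filled and control arrays as open points and bars at the group means; each panel has its own axis. In H1693 the KD points lie below the control points in every panel, and in H1993 in every panel but CCNE2, whereas in H1650 they lie above for CDC6, PRIM1, POLE2, RFC3, CCNE2, DTL and WDHD1.

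The polymerases followed the helicase in H1693 and moved less in H1993. Of the 4 subunits of polymerase alpha-primase, 2 fell in H1993 and 4 in H1693. PRIM1, the catalytic primase subunit, had 10.97 and 10.88 in H1993 KD arrays, against 11.37 and 11.41 in the controls, and 10.49 and 10.49 in H1693 KD arrays, against 11.23 and 11.19 in the controls. It fell by 0.47 and by 0.72, with no overlap. POLA1, the catalytic polymerase subunit, had 8.90 and 8.89 in H1693 KD arrays, against 9.60 and 9.57 in the controls (change -0.69, SE 0.06, adjusted p = 3.73e-05), and 9.33 and 9.37 in H1993 KD arrays, against 9.46 and 9.52 in the controls (change -0.14, adjusted p = 0.115). PRIM2 and POLA2 fell by 0.99 and 0.77 in H1693 and changed by -0.15 (not passed) and -0.24 (passed) in H1993.

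Of the 5 genes of polymerases delta and epsilon, all fell in H1693 and only POLD2 passed in H1993. For so few genes, that H1993 count is near the 14.5% of all tested genes that fell. POLE2, the second subunit of polymerase epsilon, had 8.68 and 8.93 in H1693 KD arrays, against 9.99 and 9.92 in the controls (change -1.15, SE 0.09, adjusted p = 1.86e-05). In H1993 it had 10.12 and 10.14 in KD arrays, against 10.39 and 10.30 in the controls (change -0.22, adjusted p = 0.103). POLE, the catalytic subunit, had 10.62 and 10.50 in H1693 KD arrays, against 11.07 and 11.02 in the controls (change -0.48), and 10.89 and 10.82 in H1993 KD arrays, against 10.81 and 10.91 in the controls (change -0.01, adjusted p = 0.967). The 2 subunits of one enzyme therefore ended at 45.1% and 71.5% of the control in H1693. POLD1, the catalytic subunit of polymerase delta, and POLD3 fell by 0.83 and 0.70 in H1693 and changed by -0.20 and 0.05 in H1993. POLD2 had changes of -0.36 (H1693) and -0.29 (H1993), with a difference that did not pass ( -0.07, SE 0.09, adjusted p = 0.661).

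The clamp loader genes fell with the polymerases, 4 of 6 in H1993 and 6 of 6 in H1693 with PCNA counted among them. PCNA itself, the sliding clamp, fell by 0.86 in H1693 and had a change of -0.12 in H1993 (adjusted p = 0.225). RFC3, a small subunit of the loader, had 11.07 and 10.98 in H1993 KD arrays, against 11.53 and 11.54 in the controls, and 10.17 and 10.28 in H1693 KD arrays, against 11.22 and 11.15 in the controls. It fell by 0.51 and 0.96, and in H1993 the fall did not pass with the median of its 4 probe sets (-0.33, adjusted p = 0.0885). RFC1, the large subunit, had 9.40 and 9.23 in H1693 KD arrays, against 9.68 and 9.65 in the controls (change -0.35, SE 0.07, adjusted p = 0.0052; without KD replicate 2 it was -0.26, adjusted p = 0.0519). In H1993 its KD arrays, at 10.28 and 10.31, lie above the controls at 10.09 and 10.20, and the change of 0.15 did not pass (adjusted p = 0.152). The dimmer probe sets of RFC1 changed by -0.10 and -0.58 in H1993 and by -0.46 and -0.03 in H1693. RFC2, RFC4 and RFC5 fell in both lines, by 0.29, 0.27 and 0.48 in H1993 and by 0.85, 0.75 and 0.83 in H1693, although 1 probe set of RFC5 was at 0.55 in H1993 and 0.19 in H1693.

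RPA, the trimer that coats single-stranded DNA, did not move as a unit. RPA1 had 11.58 and 11.60 in H1693 KD arrays, against 12.52 and 12.44 in the controls (change -0.89, SE 0.06, adjusted p = 1.02e-05), and 11.71 and 11.73 in H1993 KD arrays, against 12.36 and 12.44 in the controls (change -0.68, SE 0.06, adjusted p = 3.77e-05). The difference between the lines did not pass (-0.21, SE 0.09, adjusted p = 0.138), and its other, dimmer probe set changed by 0.03 in H1993 and 0.05 in H1693. RPA3 fell by 0.55 in H1993 and by 0.42 in H1693. RPA2 had 11.61 and 11.72 in H1693 KD arrays, against 11.83 and 11.94 in the controls (change -0.22, adjusted p = 0.0401), and 11.59 and 11.55 in H1993 KD arrays, against 11.50 and 11.47 in the controls (change 0.08, adjusted p = 0.439). The H1693 call for RPA2 is marginal: it held in 9 of 22 alternative settings.

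FEN1 and LIG1, the nuclease and the ligase that finish Okazaki fragments, fell in H1693 and not detectably in H1993. FEN1 had 10.87 and 10.91 in H1693 KD arrays, against 11.83 and 11.81 in the controls (change -0.93), and 11.48 and 11.44 in H1993 KD arrays, against 11.52 and 11.67 in the controls (change -0.14, adjusted p = 0.268). LIG1 had 8.38 and 8.42 in H1693 KD arrays, against 9.10 and 9.10 in the controls (change -0.70), and 10.39 and 10.34 in H1993 KD arrays, against 10.38 and 10.47 in the controls (change -0.06, adjusted p = 0.578). The difference between the lines passed for both, at -0.79 (SE 0.12) for FEN1 and -0.64 (SE 0.10) for LIG1 (adjusted p = 0.00156 and 0.00176).

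The genes of nucleotide supply fell in H1693, 4 of 4, and 2 of 4 fell in H1993. RRM1, the large subunit of ribonucleotide reductase, had 11.33 and 11.26 in H1993 KD arrays, against 11.58 and 11.66 in the controls, and 9.95 and 9.87 in H1693 KD arrays, against 11.05 and 11.00 in the controls. Its changes were -0.32 (SE 0.06, adjusted p = 0.00318) and -1.11 (SE 0.06, adjusted p = 3.39e-06). RRM2, the small subunit whose level limits the enzyme in cycling cells, had 13.23 and 13.06 in H1993 KD arrays, against 13.17 and 13.16 in the controls (change -0.02, adjusted p = 0.871). In H1693 it had 11.71 and 11.61 in KD arrays, against 12.27 and 12.25 in the controls (change -0.60, adjusted p = 0.000224). The groups overlap in H1993 only. Thymidylate synthase TYMS and thymidine kinase TK1 changed by -0.35 (passed) and -0.06 (not passed) in H1993 and fell by 0.73 and 0.78 in H1693.

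Cyclin E, which with CDK2 drives entry into S phase, separated the lines. CCNE2 had 7.94 and 7.78 in H1693 KD arrays, against 9.04 and 8.99 in the controls (change -1.15, SE 0.12, adjusted p = 8.93e-05). In H1993 it had 10.18 and 10.02 in KD arrays, against 10.20 and 9.96 in the controls (change 0.02, adjusted p = 0.937), and the groups overlap. Its difference of -1.17 (SE 0.17, adjusted p = 0.00128) was the largest of the 53 genes. CCNE1 had 8.90 and 9.07 in H1693 KD arrays, against 9.61 and 9.52 in the controls (change -0.58), and 11.89 and 11.84 in H1993 KD arrays, against 11.74 and 11.67 in the controls (change 0.16, adjusted p = 0.139). Its H1993 KD arrays lie above the controls, by less than the fit can call.

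Of the 4 chromatin and ubiquitin genes, 2 fell in H1993 and 4 in H1693 (medians -0.33 and -0.99). DTL, the adaptor through which the CRL4 ubiquitin ligase destroys CDT1, had 9.61 and 9.41 in H1993 KD arrays, against 10.15 and 10.19 in the controls (change -0.66, SE 0.12, adjusted p = 0.00167). The H1693 values were 8.38 and 8.49 in KD arrays, against 9.86 and 9.60 in the controls (change -1.29, SE 0.12, adjusted p = 3.5e-05). UHRF1, which carries DNA methylation over to the new strand, fell by 0.47 and 1.11, with 1 dim probe set at 0.09 and 0.16. CHAF1A, the large subunit of the histone chaperone CAF-1, had 10.54 and 10.56 in H1993 KD arrays, against 10.64 and 10.61 in the controls (change -0.08, adjusted p = 0.488). In H1693 it had 9.39 and 9.36 in KD arrays, against 10.01 and 9.99 in the controls (change -0.62, adjusted p = 0.000162). CHAF1B likewise passed in H1693 only (-0.87) and not in H1993 (-0.19, adjusted p = 0.224).

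All 3 fork protection genes fell in both lines. WDHD1, which links the helicase to polymerase alpha, had 6.51 and 6.46 in H1993 KD arrays, against 6.97 and 7.05 in the controls (change -0.52, SE 0.11, adjusted p = 0.00417). The H1693 values were 6.74 and 6.76 in KD arrays, against 8.19 and 8.01 in the controls. That change of -1.35 (SE 0.11, adjusted p = 1.77e-05), the deepest of the 53 in H1693, corresponds to 39.2% of the control. Its other, dimmer probe set changed by -0.51 in H1993 and by -0.51 in H1693. TIPIN had 9.56 and 9.60 in H1993 KD arrays, against 9.82 and 9.79 in the controls (change -0.22, adjusted p = 0.032), and 10.41 and 10.28 in H1693 KD arrays, against 10.71 and 10.78 in the controls (change -0.40). Its H1993 call held in 16 of 22 alternative settings, and that of its partner TIMELESS, also at -0.22, in 17 of 22.

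The fall was larger in H1693 than in H1993 for most of the 53 genes, although MARK2 itself fell by more in H1993 (difference 1.08, SE 0.23, adjusted p = 0.00781). The change was more negative in H1693 for 51 of 53 genes, where 56.5% of all tested genes have a negative difference. It passed for 41 genes, all more negative in H1693, where 12.6% of all tested genes did so and 9.48% differed the other way. At an unadjusted p below 0.05, limma gave 47 and 0, again with no count over all tested genes beside it. A total of 28 genes fell in both lines, where 6.94% of all tested genes did, and a further 24 passed in H1693 only. Over the mean of all 3 lines, H1650 included, 44 fell, where 19.5% of all tested genes fell and 48.7% changed in either direction. The 12 genes without a difference past the threshold were RPA1, RPA2 and RPA3, ORC2, ORC5 and ORC6, PRIM1, CDC45, POLD2, RFC5, TIPIN and MCM5. Across the 53 genes the changes in the lines correlated with Pearson's r of 0.383 and Spearman's rho of 0.416, close to 0.389 and 0.385 over all 16205 tested genes; genes share arrays and are not replicates. MARK2 on KD arrays lay at 6.57 to 6.77 in both lines, and whether background limits its fall in H1693 was not tested.

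**Figure D3:**
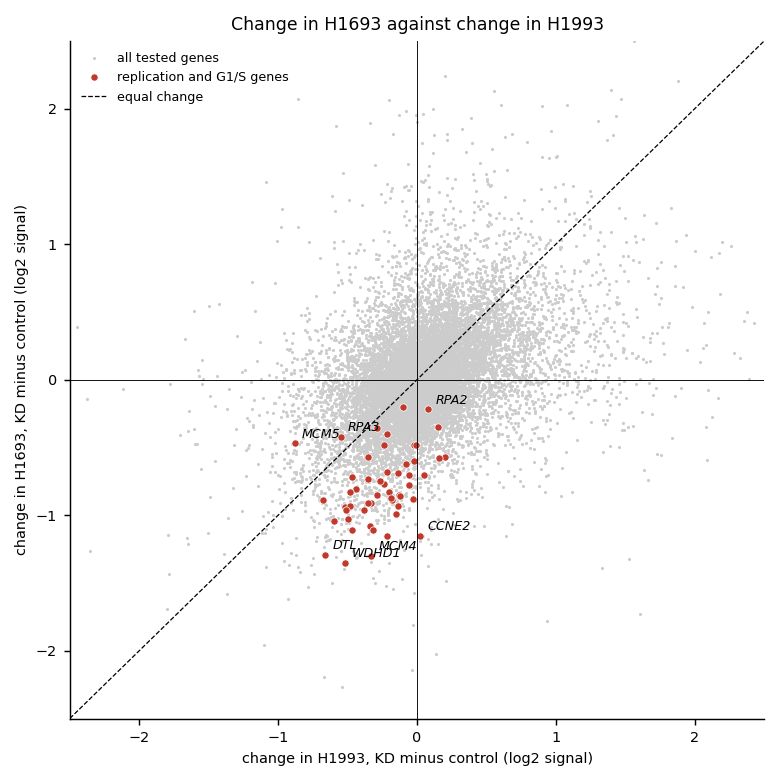
Change in H1693 (vertical axis) against change in H1993 (horizontal axis), both KD minus control in log2 signal, for the 53 genes over all tested genes (14 of these lie outside the range drawn); the dashed line marks equal change. Of the 53 points, 51 lie below the line, and MCM5 and RPA3 lie above it.

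The lines also differ in the levels from which these genes fell. The median over the 53 genes of the level in H1993 minus that in H1693 was 0.14 in the control arrays and 0.66 in the KD arrays. The extremes among the controls were ORC5 and CCNE1, higher in H1993 by 2.17 and 2.14, and PRIM2 and CDC45, with differences of -1.58 and -1.34 (H1993 minus H1693). These are levels of one probe set between lines, given as a description.

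In H1650, where RNA integrity differs between the groups as given above, the genes did not move one way. By the brightest probe sets, 19 fell and 14 rose, where 16.7% of all tested genes fell and 36.7% rose, and the median change was 0.02 beside 0.15 over all tested genes. Without control replicate 1, 9 rose. GINS2 had 9.16 and 9.28 in H1650 KD arrays, against 10.83 and 10.67 in the controls (change -1.53, SE 0.08, adjusted p = 6.96e-07). MCM2 had 10.53 and 10.62 in KD arrays, against 11.99 and 11.95 in the controls (change -1.39). ORC6 had 11.66 and 11.63 in KD arrays, against 10.88 and 11.06 in the controls (change 0.68, adjusted p = 8.14e-05), and GINS3 was also higher, by 0.62. Subunits of one complex thus lay on opposite sides of their controls with no overlap.

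Probe sets of the same gene disagreed far more in H1650. Of the 40 genes with several, 24 had probe sets on both sides of 0 in H1650, against 12 in H1993 and 4 in H1693. The median distance between a gene's highest and lowest probe set was 1.10 in H1650, 0.19 in H1993 and 0.24 in H1693. The MCM4 probe sets ran from -3.08 to 0.01 in H1650, those of MCM7 from -2.81 to 0.33, those of FEN1 from -2.95 to 0.39 and those of CCNE2 from -2.05 to 0.41. With the median probe set of each gene in place of the brightest, the median change of the 53 in H1650 was -0.31. In H1693 36 of the 40 genes had every probe set below 0, and in H1993 26 did. The part of RNA integrity in the H1650 changes was not tested, and these values do not measure an effect of the hairpin there.

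**Figure D4:**
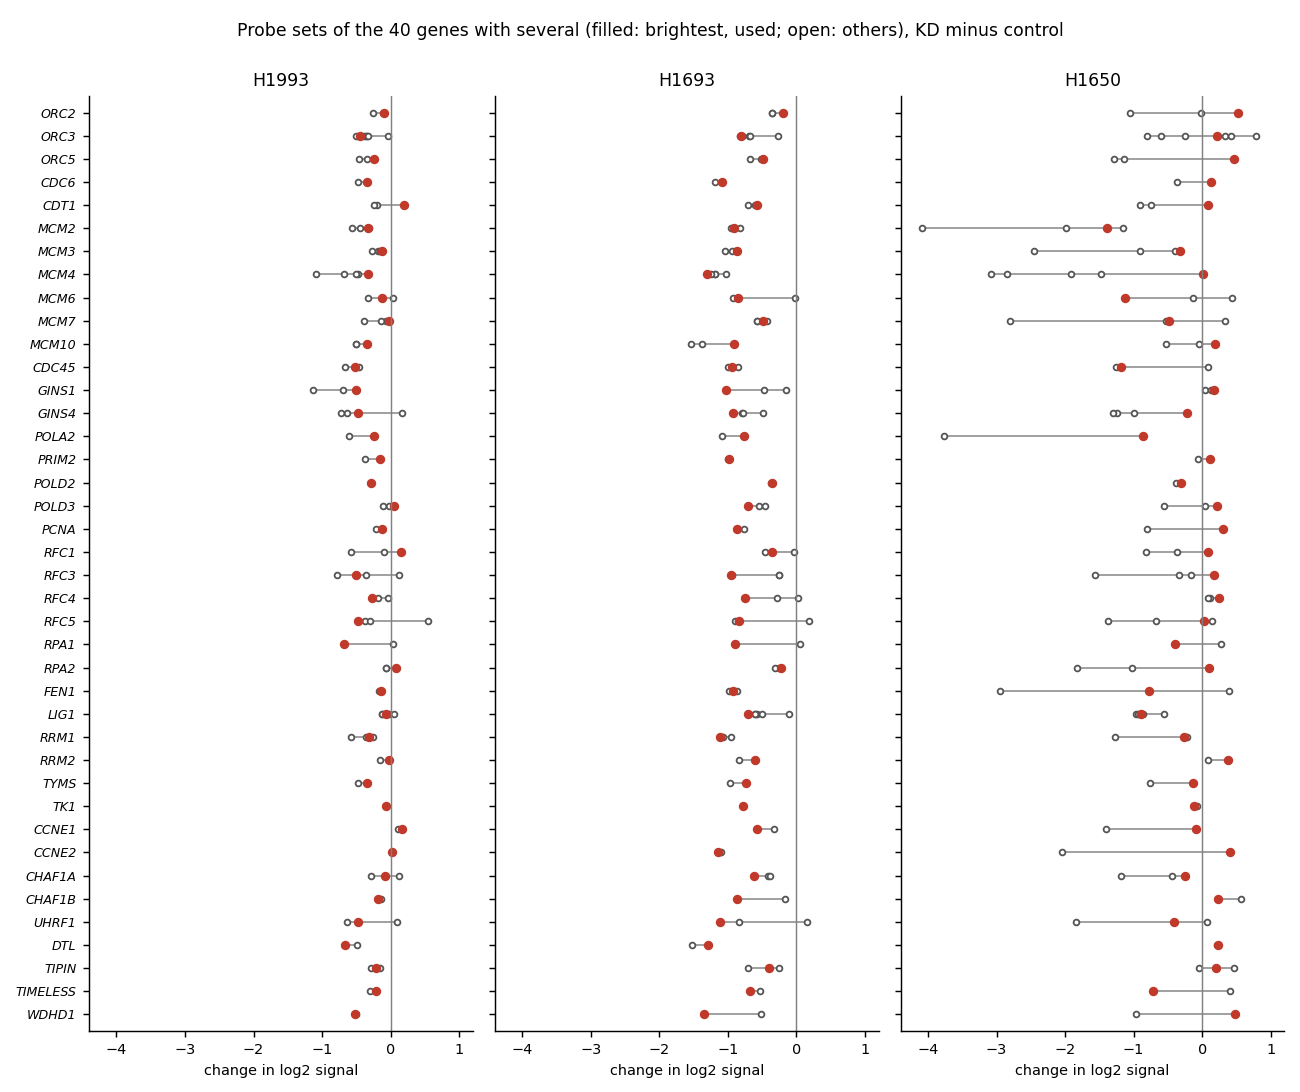
Change in log2 signal, KD minus control, of every probe set of the 40 genes that have several, by line; filled points are the brightest probe set, used in all other results, and grey bars join the lowest and highest. The bars are short in H1993 and H1693 (medians 0.19 and 0.24) and long in H1650 (median 1.10), where 24 of 40 cross 0.

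Other genes of replication moved with the 53. Of 38 further replication genes chosen by name, 37 were tested; 18 fell and 1 rose in H1993, and 27 fell and 1 rose in H1693 (medians -0.21 and -0.46), beside the backgrounds of 14.5% and 15.9% lower given above and of 18.9% and 17.1% higher. TICRR, which helps to recruit CDC45, fell by 0.53 in H1993 and 1.40 in H1693. The MCM paralogue MCM8 fell by 0.69 and 0.84, and the regulatory kinase subunit DBF4 by 0.37 and 0.93. POLD4, the smallest subunit of polymerase delta, was the gene that rose in H1693, by 0.70 (adjusted p = 3.91e-05), and CHTF18, of an alternative clamp loader, the one that rose in H1993, by 0.38.

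Of 28 G1/S regulators named, 27 were tested. In H1993 8 fell and 6 rose (median -0.09), where 14.5% of all tested genes fell and 18.9% rose. In H1693 14 fell and 4 rose (median -0.34), where 15.9% fell and 17.1% rose, so the rises were near the share over all genes in both lines. CDKN1C, the CDK inhibitor p57, rose by 1.23 in H1993 (adjusted p = 4.61e-06) and by 1.19 in H1693 (adjusted p = 7.23e-06). Cyclin A2, CCNA2, fell by 0.66 and 1.19, and the repressor E2F8 by 0.46 and 1.26. The activators E2F1 and E2F2 fell by 0.34 and 0.54 in H1993 and by 0.45 and 0.75 in H1693. The activator E2F3 did not fall with them: it rose by 0.28 in H1993 (limma adjusted p = 0.0131). In H1693 its change of -0.10 did not pass (adjusted p = 0.323). CDC25A, the phosphatase that activates CDK2, fell by 0.80 in H1693 and rose by 0.62 in H1993 (difference -1.41, adjusted p = 3.41e-05), and CCND2, a D cyclin, fell by 0.74 in H1693, where it was dim, and rose by 1.66 in H1993 (difference -2.41, adjusted p = 8.29e-05). CDKN1A, the CDK inhibitor p21, rose by 0.63 in H1993 and had a change of -0.07 in H1693. E2F1, E2F2, E2F3, CDC25A, CCND2 and CDKN1A were picked after their values were seen.

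Matches to the E2F spellings searched did not set apart the genes that fell most. Genes without a match may still hold an E2F site: the CDC45 window has ttggcgg, 1 letter from the spelled TTGGCGC, and counts as without. The comparison therefore covers these spellings in this window only, and cannot speak for E2F sites as a class. In H1693 the median change was -0.81 in the 21 genes with a match and -0.85 in the 25 without. In H1993 the medians were -0.27 and -0.22. Over all 12980 tested genes with a window, those with a match had medians of -0.01 in H1993 and -0.04 in H1693, and those without 0.02 and -0.02. These are descriptions of letters in 1 window for each gene, and binding was not measured.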

How the data were processed

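The authors deposited log2 signals for 49395 probe sets on 12 arrays, for which the submitters' processing notes name RMA and the software Affymetrix Expression Console, without versions. RMA fits all arrays to one distribution, so a shift common to all genes would be removed, and dim signals understate changes. Array medians ran from 7.13 to 7.32. Probe sets with 1 gene symbol (44988 after 102 controls were left out) were named through the platform annotation, of which 44961 matched RefSeq (GRCh38.p14) by gene ID. The number of arrays limits the precision.

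Each gene took its probe set with the highest mean. Genes with a log2 signal of at least 5 on 2 arrays were tested with limma 3.58.1 in R 4.3.3: 1 mean for each of 6 groups, eBayes (6 residual degrees of freedom, prior 3.52), two-sided tests, Benjamini-Hochberg adjustment over 16205 genes, threshold 0.05. Contrasts were KD minus control in each line, their mean over H1993 and H1693, the difference H1693 minus H1993, and an F test over the lines. Standard errors (SE) come from this fit, which was tested on simulated data.

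The genes, lists and rules were chosen with earlier results of these data known. Values on every array are given for the gene of each complex with the largest and the smallest mean change in H1993 and H1693, for the 4 genes with the smallest F-test p and for MARK2; other genes given this way (ORC6, MCM2, MCM5 and CDC45) were picked after their values were seen. Of the other lists, the 3 genes with the largest mean change are named. Replicates were not duplicates: 0.0526% to 0.0992% of values were identical within a group. The labels do not say whether replicate numbers pair KD and control arrays, and the main fit took no pairing. The correlation of replicate differences was 0.286, -0.176 and -0.105 in H1993, H1693 and H1650. Each window's bases are those RefSeq lists, read on the gene's strand.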

Additional observations from a re-analysis of the deposited data

Results flagged for a closer look

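The change, KD minus control, differed between H1693 and H1993 for 41 of the 53 genes, by the limma test of the difference of the changes (adjusted p below 0.05). Beside this, 12.6% of all tested genes were called more negative in H1693. All 41 were more negative in H1693. The values are the change in H1693 minus the change in H1993, in log2 signal. The widest gaps were CCNE2 (-1.17), MCM4 (-0.97), POLE2 (-0.93), PRIM2 (-0.85), GINS3 (-0.85) and WDHD1 (-0.83). They were followed by FEN1 (-0.79), RRM1 (-0.79), CDT1 (-0.77), POLD3 (-0.75), CCNE1 (-0.74), PCNA (-0.74), CDC6 (-0.73), TK1 (-0.72), MCM3 (-0.72), MCM6 (-0.72) and GMNN (-0.71). Smaller gaps were those of CHAF1B (-0.68), UHRF1 (-0.64), LIG1 (-0.64), POLD1 (-0.63), DTL (-0.63), MCM2 (-0.58), RRM2 (-0.58), ORC1 (-0.58), RFC2 (-0.56), MCM10 (-0.56), POLA1 (-0.55) and CHAF1A (-0.55). The narrowest that passed were POLA2 (-0.53), GINS1 (-0.53), RFC1 (-0.50), POLE (-0.48), RFC4 (-0.48), MCM7 (-0.46), TIMELESS (-0.46), GINS4 (-0.46), RFC3 (-0.46), GINS2 (-0.44), TYMS (-0.38) and ORC3 (-0.37). The GINS1 difference turned with the probe set: over 22 alternative settings it ran from -0.59 to 0.68. That of WDHD1, whose dimmer probe set fell alike in both lines, ran from -0.92 to -0.41. The F test over H1993, H1693 and H1650 passed for 51 of the 53 genes, where 54.9% of all tested genes passed, and it includes the H1650 arrays with their difference in GAPDH 3' minus 5' signal. MARK2 fell by more in H1993, so the order of the lines for these genes is opposite to that for MARK2 signal; no cause was tested.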

How the results depend on the processing

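Over 22 alternative settings (probe set choice, signal filter, normalisation, line-wise fits, variance trend, array weights, replicate block and each array left out), all 28, 52 and 50 genes called lower in H1993, in H1693 and in their mean kept their sign, and 17, 48 and 48 passed in every setting in which they were measured. In the mean of H1993 and H1693, 18.7% of all tested genes were called lower and 22.4% higher. Of the 41 differences between these lines, 40 kept their sign, GINS1 being the exception, and 31 passed in every setting. Of the 33 calls in H1650, 24 kept their sign and 19 passed in every setting. With each array left out in turn the count lower ran from 21 to 29 in H1993, from 49 to 52 in H1693 and from 49 to 50 in the mean. The count with a difference more negative in H1693 ran from 36 to 42, and that of genes past the F test from 49 to 51. A trend in the variance called 1 gene higher in H1993 in place of 0 (1 at an unadjusted p below 0.05). The median of probe sets called 1 difference more positive in H1693 in place of 0 (GINS1, 0.68). Without H1993 control replicate 1 the MCM5 difference was 0.67, against 0.42 with all arrays. In H1650 the count higher was 14, or 9 on that line's arrays alone and 9 to 16 with each array left out, and the count lower 17 to 19. A fit with GAPDH 3' minus 5' as a covariate is not among the 22 settings. With it limma called 0 lower and 0 higher in H1650 (2 and 0 at an unadjusted p below 0.05). This covariate nearly coincides with the groups, and the median SE was 0.52 against 0.07 without it. The H1650 median of 0.02 changed sign with the median of probe sets (-0.31), the lowest-variance probe set (-0.12), quantile normalisation (-0.07), median centring (-0.02), that covariate (-0.30) and without control replicate 1 (-0.01; -0.01 to 0.06 with each array left out). Over all tested genes, the share of H1650 calls that were lower was 31.2%, against 42.3% with quantile normalisation and 42.2% with the median of probe sets, and quantile normalisation moved the all-gene median there to 0.04, against 0.15. The replicate block called 26 lower in H1993, 50 in H1693 and 50 in their mean; a crossed pairing, chosen after seeing the data, called 27, 51 and 50. Median centring turned the all-gene medians to -0.05 in H1993 and -0.04 in H1693, and the share of all genes' calls that were lower in H1993 to 56.5%, against 43.4% without it. The causes of these shifts were not tested otherwise.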
